A study of Mus musculus with 157 samples.

Results

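In LPS-activated mouse B cells, mRNAs on heavy polysomes were compared with mRNAs on light polysomes of the same sucrose gradient. Polysomes are mRNAs that carry several ribosomes. The comparison rests on 24 of the 157 libraries of the series, all from cells given LPS and neither etoposide nor the ATM inhibitor KU55933. Splenic B cells of C57BL6_Babr mice aged 8 to 12 weeks were purified with a B cell isolation kit and kept in LPS at 10 µg/ml for 48 h. Cycloheximide, which freezes ribosomes on the mRNA, was added at 100 µg/ml for 3 min before cytoplasmic extracts were spread over 4 gradients, named here LUL15 to LUL18 after the library pool in the column names. Fractions 8 to 10 (12 libraries) made up the light class and fractions 11 to 13 (12 libraries) the heavy class. The labels place fractions 11 to 16 in heavy polysomes, so the heavy class here is the lighter part of theirs. The study calls its libraries biological replicates, but the sources used here do not say whether each gradient came from its own mice, and p-values measure the spread between gradients.

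A polysome sediments further the more ribosomes it carries, and each ribosome covers a stretch of the coding sequence. A short coding sequence therefore has room for few ribosomes however well it is translated. Ribosome number also depends on how often translation starts. Start is hindered in many mRNAs by short upstream open reading frames (uORFs) in the 5′ untranslated region, and in mRNAs that begin with a terminal oligopyrimidine tract (TOP mRNAs, most of which encode ribosomal proteins and translation factors) it depends on mTOR signalling. LPS turns resting B cells into dividing blasts that make antibody, with a large demand for ribosomes, proteasomes and the secretory machinery.

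The 24 libraries held 32306 to 3403708 counts (median 1446814). Levels are given as CPM, the counts of a gene scaled to a common library total. The shallowest was fraction 12 of LUL17, in which 1 count equals 31 CPM, and the next had 430425 counts. LUL16 was displaced by about 1 fraction. The log2 CPM of its fraction 10 correlated at 0.948 with fraction 11 of the other gradients and at 0.921 with their fraction 10 (medians of 3 gradients, across genes). The same shift by 1 fraction towards lighter numbers held for its fractions 9 and 11 to 13 against LUL15 and LUL18, but not for fraction 8. Counts of calls and medians by coding length are given below with and without these libraries. Of 10 B cell markers, all were above 1 CPM, and their summed level was 2531 to 3449 CPM in the light and 3693 to 5059 CPM in the heavy class of the 4 gradients. Among 6 T cell markers 5 were under 1 CPM, and Lck made up most of the sum of 123 to 210 CPM. Sums of 10 myeloid markers ran from 45.2 to 163 CPM in light and 36.2 to 57.9 CPM in heavy polysomes.

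Of 7116 genes tested, 3239 (45.5%) differed between heavy and light polysomes at an adjusted p under 0.01 (limma on the log2 ratio within each gradient). In heavy polysomes 1942 (27.3%) were higher and 1297 (18.2%) were lower. Without the shallow library of LUL17 the count was 3686, and with LUL16 read 1 fraction lower it was 3736. The median log2 ratio of heavy over light CPM was 0.29 over all genes tested, so a ratio is best read against that value and not against 0. With counts summed over the fractions and edgeR's scaling this median was 0.05, and of 3375 calls 1606 were higher (22.6%) and 1769 lower (24.9%) in heavy polysomes. At least a 2-fold difference was seen for 1051 of the higher and 950 of the lower genes. Of the 3239 genes called, 3232 had the same direction in all 4 gradients. The 4 heavy and 4 light values did not overlap for 1877 genes with heavy above light (26.4%) and 1292 with heavy below light (18.2%).

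The mRNAs with the lowest heavy to light ratio encoded very small proteins. Tomm7, a subunit of the mitochondrial import pore with 55 codons, had 1127, 824, 1278 and 1164 CPM in the light class of LUL15 to LUL18 and 98.0, 73.0, 121 and 114 CPM in the heavy class. Light values exceeded heavy values by about the same factor in every gradient, a log2 ratio of -3.43 ± 0.14 (SE, n = 4 gradients, adjusted p = 9.0e-08). Tmsb4x, the actin-sequestering thymosin beta 4 with 44 codons, fell from 3428, 1995, 3435 and 2984 CPM to 356, 275, 304 and 261 CPM (log2 ratio -3.28 ± 0.15). Ost4, a 37-codon subunit of the oligosaccharyltransferase that glycosylates new proteins in the endoplasmic reticulum (ER), had a log2 ratio of -3.16 ± 0.14. The 12 lowest protein-coding genes by the naming rule were Tomm7, Romo1, Tmsb4x, Lst1, Ost4, Tomm6, Tmem29, Uqcr11, Uqcr10, Timm8b, Rps27l and Myeov2. Their log2 ratios ran from -3.43 to -2.97. For 11 of them a coding length was found, of 93 codons or fewer. For Tomm7 the main counted site lay 717 bases from the nearest annotated transcript end, in an untranslated or noncoding exon.

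At the other end stood mRNAs of middle coding length. Hnrnpa2b1, an RNA-binding protein of splicing and mRNA transport with 341 codons, had 520, 475, 363 and 247 CPM in light and 2684, 2620, 1964 and 1170 CPM in heavy polysomes, a log2 ratio of 2.37 ± 0.13 (adjusted p = 2.3e-07). Anp32e, a chaperone of the histone variant H2A.Z, matched it at 2.37 ± 0.16. Actb, beta-actin, rose from 1712, 1833, 806 and 782 CPM to 5301, 6400, 5437 and 3412 CPM (2.08 ± 0.17). In these 3 genes, which were picked for high ratios, the lowest heavy value was above the highest light value. The other 9 highest were Idh2 and Pdhb of mitochondrial carbon metabolism, Uqcrc1 of respiratory complex III, Uba2 of SUMO activation, Prkar1a of protein kinase A, Pdia6 of disulfide formation in the ER, the septin Sept1, Gpd1l, and H2-K1, a heavy chain of MHC class I. Their log2 ratios lay between 1.90 and 2.00, and their coding lengths between 351 and 638 codons. In LUL17 the ratios of Uba2 (2.89) and Gpd1l (2.79) lean on its shallow fraction 12 library, where 1 count equals 31 CPM. Their ratios ran from 1.47 to 1.76 in the other gradients. In that library Uba2 was at 155 CPM, against 8.61 and 25.1 CPM in fractions 11 and 13 of LUL17. Actb was at 9596 CPM there, against 1174 and 5543 CPM. Actb and H2-K1 have near-identical pseudogenes or paralogs, and their counts are uncertain to that extent.

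**Figure D1:**
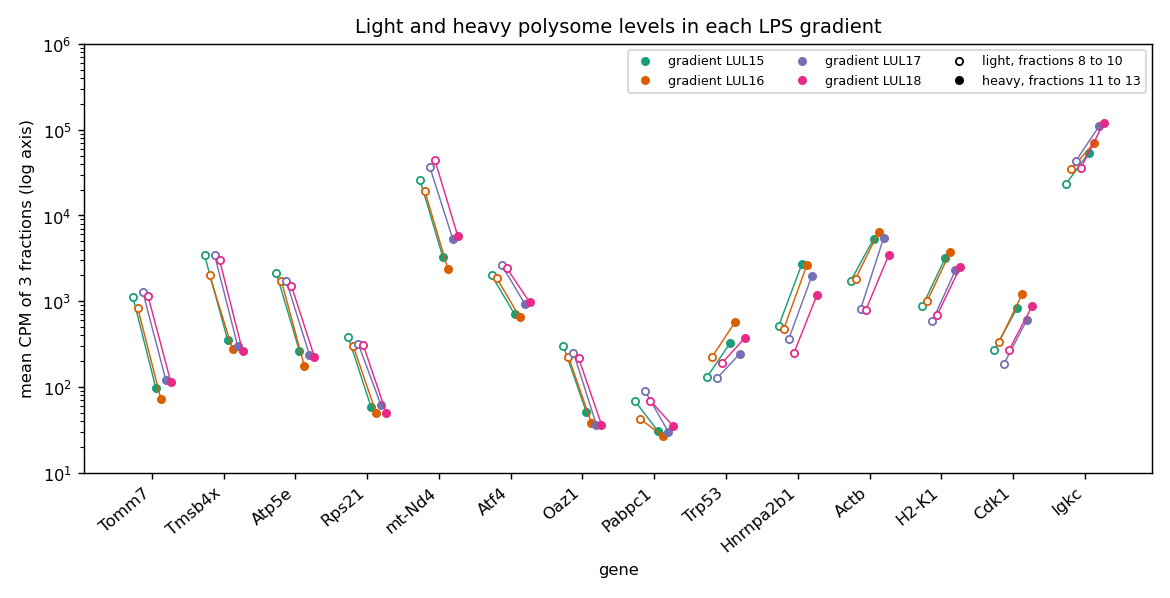
Mean CPM of the light (fractions 8 to 10, open circles) and heavy (fractions 11 to 13, filled circles) classes for 14 genes on a log axis, with a line joining the 2 values of each gradient. The lines fall steeply for Tomm7, Tmsb4x, Atp5e, Rps21 and mt-Nd4, and rise for Trp53, Hnrnpa2b1, Actb, H2-K1, Cdk1 and Igkc, in all 4 gradients.

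The ratio followed coding length along a curve that rose and then fell. For 6751 genes a coding length was taken from the annotation, 1 transcript a gene. Among 179 genes of 100 or fewer codons the median log2 ratio was -2.06, and it lay between -2.31 and -1.97 in the 4 gradients. Of these genes 167 were lower in heavy polysomes and 2 were higher. The median was -1.19 for 101 to 150 codons, -0.33 for 151 to 200 and 0.18 for 201 to 300. It stayed between 0.42 and 0.55 from 301 to 1500 codons, where 1522 of 4345 genes were higher and 310 were lower. Above that it declined to 0.21 for 1501 to 2000 codons, 0.19 for 2001 to 3000 and -0.35 for over 3000. Of the 36 longest, none was called higher in heavy polysomes by limma, 6 were lower, and the other 30 missed the threshold. Without the shallow library of LUL17 the medians were -1.98 for 100 or fewer, 0.53 for 501 to 700 and -0.37 for over 3000 codons. With LUL16 read 1 fraction lower they were -1.92, 0.42 and -0.49, and that of 1501 to 2000 codons was -0.03. The decline was the less certain part: in LUL16 the median of genes of 701 to 1000 codons was 0.91, in LUL18 it was 0.17. Across genes, log2 coding length correlated with the log2 ratio at a Pearson r of 0.41 (Spearman rho 0.32, n = 6751), with an r of 0.19 to 0.58 in single gradients and 0.29 with LUL16 read 1 fraction lower. The r was 0.59 for genes of 500 or fewer codons and -0.16 for longer ones. Genes are not independent replicates, and they share the same libraries. With genes of 100 or more mean CPM alone, the r was 0.55 and the medians ran from -2.21 at 100 or fewer codons to 0.84 at 401 to 500 and -0.67 over 3000 (4 genes).

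**Figure D2:**
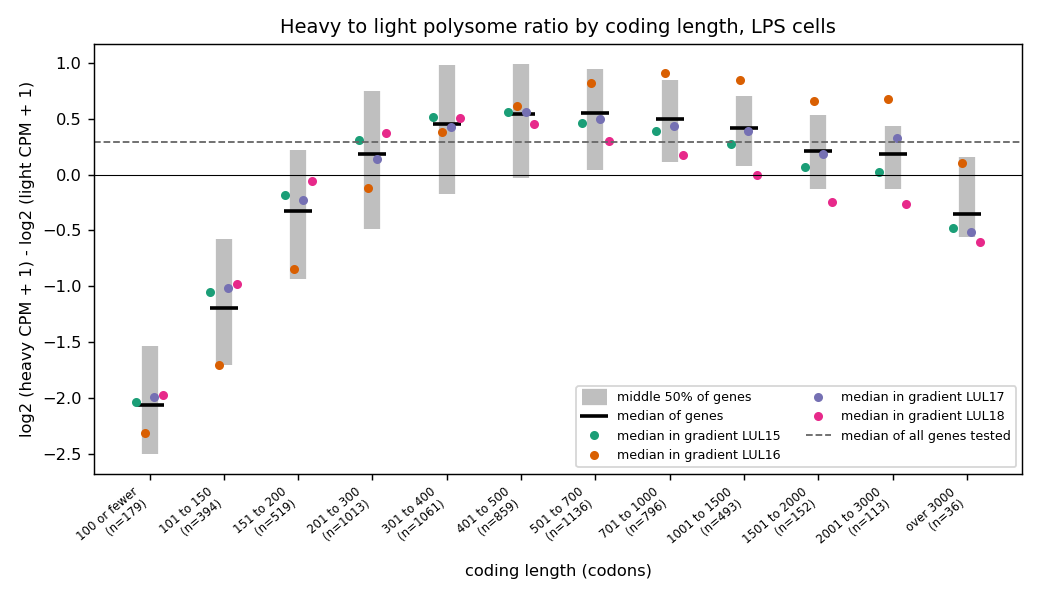
Log2 ratio of heavy over light CPM (each + 1) against coding length in 12 bins, with the number of genes below each bin, the median and middle 50% of genes (bars), and the median in each gradient (points). The medians climb from -2.06 at 100 or fewer codons to 0.55 at 501 to 700 and come down to -0.35 over 3000, while LUL16 sits below the other gradients at short lengths and above them at long ones.

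The CPM of a gene over fractions 8 to 16 was taken as 100%, and the median share of each fraction was read for every length bin. Genes of 100 or fewer codons had their highest share, 26.9%, in fraction 9, those of 151 to 200 in fraction 11 (17.9%), those of 301 to 400 in fraction 12 (13.6%) and those of 501 to 700 in fraction 13 (14.0%). Genes of 701 to 1000 codons were highest in fraction 14 (17.4%), and those of 2001 to 3000 in fraction 15 (23.8%). Genes of over 3000 codons held 35.2% in fraction 16 and 4.98% in fraction 13. The highest fraction thus moved down the gradient with each step in length or stayed in place. When the heavy class was widened to fractions 11 to 16, as in the labels, the median log2 ratio rose with length up to 1.46 for over 3000 codons, and 5097 of 7182 genes were called. Because each library was made from the same RNA concentration, shares compare fractions per unit of library, not amounts of mRNA. In such bulk extracts, fewer cells with an mRNA and less of it per cell cannot be told apart.

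**Figure D3:**
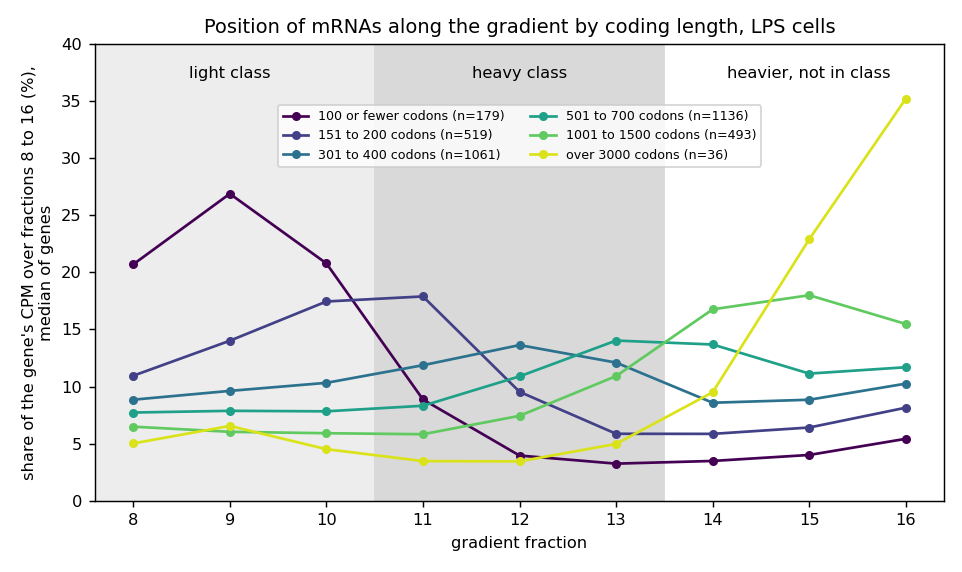
Median share of a gene's CPM in each of fractions 8 to 16 (percent, mean of 4 gradients a gene) for 6 bins of coding length. Shading marks the light class, the heavy class and the fractions beyond it. The highest share moves from fraction 9 (26.9%) for 100 or fewer codons to fraction 16 (35.2%) for over 3000 codons.

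The naming rule also picked abundant genes at both extremes of length. Atp5e, the 52-codon epsilon subunit of ATP synthase, had 2122, 1721, 1712 and 1507 CPM in light and 266, 177, 238 and 225 CPM in heavy polysomes (log2 ratio -2.96 ± 0.14). Rpl39, a ribosomal protein of 51 codons, had a log2 ratio of -2.50 ± 0.16. Of the 5 longest, the ubiquitin ligase Ubr4 with 5180 codons had 161, 140, 74.9 and 132 CPM in light and 88.3, 119, 34.8 and 65.3 CPM in heavy polysomes. Heavy was lower in each gradient (-0.80 ± 0.18, adjusted p = 0.0024). Rnf213 (-0.74 ± 0.16) and the dynein motor heavy chain Dync1h1 (-0.59 ± 0.17) were also lower, as was Tg (-0.72 ± 0.18), the thyroglobulin gene. Tg, with 2766 codons, did not sit where its length bin did: its mean level was highest in fraction 10 (240 CPM) and was 58.8 CPM in fraction 15. Fraction 10 was also the highest for genes of 101 to 150 codons. Whether the counts of Tg come from an mRNA of the annotated length was not tested, so its ratio is uncertain. The ubiquitin ligase Huwe1 was not called (0.12 ± 0.18). Of 53 genes tested in a list of very long coding sequences, 2 were higher and 4 lower, with a median of -0.00. The shares over all genes were 27.3% and 18.2%. Prrc2a was the highest, at 0.90 ± 0.17, and Atm, the DNA damage kinase, had -0.95 ± 0.21. With fractions 11 to 16 as the heavy class the median of this list was 1.75, and Ubr4 (1.52), Rnf213 (1.39), Dync1h1 (1.46) and Atm (1.18) turned from lower to higher, while Tg stayed lower (-1.06). Without LUL15 or without LUL17, Ubr4, Dync1h1 and Tg missed the threshold, and Rnf213 missed it without LUL15.

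Ribosomal protein mRNAs lay towards the light side. Of 78 cytosolic ribosomal protein genes in the table, 26 fell below the filter of 10 mean CPM, and of the 52 tested 39 were lower in heavy polysomes and 0 higher by limma, and 44 were lower and 0 higher by edgeR. At an unadjusted p under 0.05 the count higher was 0 as well. Over all genes 18.2% were lower. The list's median log2 ratio was -0.98, between -1.23 and -0.75 in the 4 gradients. Rps21 had 385, 302, 320 and 310 CPM in light and 58.1, 49.8, 60.8 and 50.2 CPM in heavy polysomes (-2.57 ± 0.15). Rps27l, a paralog of Rps27 that p53 also induces, stood at -3.00 ± 0.14. Rpl15 was the highest at 0.37 ± 0.25 (adjusted p = 0.21). Together these genes took 6.61% ± 0.76 (SD, n = 4) of the light and 2.55% ± 0.36 of the heavy counts, lower in 4 of 4 gradients (exact sign-flip test, two-sided p = 0.12, the smallest 4 gradients allow, adjusted p = 0.165 over 29 groups). Many ribosomal proteins are short (median 145 codons), and the median departure of their ratio from the median of genes of like length was -0.32. Their counts can be split with processed pseudogenes.

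Other TOP mRNAs were mixed. Of 16 tested elongation factors and further TOP mRNAs, 3 were lower and 2 higher (18.2% and 27.3% of all genes). The list median was -0.11, from -0.43 to 0.41 in the gradients and 0.05 with fractions 11 to 16, and the median departure from genes of like length was -0.58. Pabpc1, the cytoplasmic poly(A)-binding protein, with 636 codons, had 67.8, 42.4, 88.7 and 69.2 CPM in light and 30.2, 26.6, 30.0 and 34.9 CPM in heavy polysomes. Heavy values were all below light values (-1.07 ± 0.18, adjusted p = 0.00041), and Pabpc1 departed by -1.62 from its length class. The elongation factors Eef1b2 (-0.73 ± 0.15) and Eef2 (-0.61) were lower, whereas the exchange factor subunit Eef1d (0.75 ± 0.14) and the initiation factor 3 subunit Eif3k (0.61 ± 0.14) were higher. With the heavy class widened to fractions 11 to 16 the ratio of Eef2 was 0.11. By edgeR 5 of the list were lower and 0 higher, and Eef1d and Eif3k were not called.

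Of 33 translation initiation factors and regulators 12 were higher and 4 lower (median 0.53), against 27.3% and 18.2% of all genes, and their median departure from genes of like length was 0.12. Eif6, which keeps ribosomal subunits apart, rose from 121, 154, 92.8 and 87.3 CPM to 417, 409, 322 and 401 CPM (1.79 ± 0.16), and the helicase Eif4a3 of the exon junction complex reached 1.58 ± 0.14. The 4 lower members were Eif4ebp1 and Eif4ebp2, which hold back cap-dependent initiation, and Eif1 and Eif1b, which guard the choice of start codon. Eif1, with 113 codons, had 1173, 1058, 1188 and 1175 CPM in light and 433, 283, 485 and 446 CPM in heavy polysomes. Of 20 aminoacyl-tRNA synthetases, which charge tRNAs, 12 were higher and 0 lower, 1 of them lower at an unadjusted p under 0.05 (median 0.84). EdgeR called 9 higher and 1 lower. Hars (1.65 ± 0.16) and Gars (1.44 ± 0.15) were the highest. Qars had the lowest value, -0.47 ± 0.19 (adjusted p = 0.050).

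The proteasome and the CCT chaperonin had the highest list medians with fractions 11 to 13 as the heavy class. With fractions 11 to 16 their medians were 0.94 and 1.17. Very long coding sequences (1.75), aminoacyl-tRNA synthetases (1.54) and mitosis genes (1.25) then stood higher. The highest median share of proteasome genes lay in fraction 12 (16.9%). Of 39 tested proteasome genes 33 (84.6%) were higher in heavy polysomes and 1 was lower, against 27.3% and 18.2% of all genes. The list median was 1.16, between 1.05 and 1.33 in the gradients, and its members departed by a median of 0.80 from genes of like length. Psma1, an alpha ring subunit, had 136, 151, 22.8 and 72.3 CPM in light and 357, 353, 110 and 221 CPM in heavy polysomes. It was higher in heavy in each gradient (1.61 ± 0.18). Psmd11, of the regulatory cap, reached 1.6 ± 0.16. The single lower member, Shfm1, encodes the 70-codon cap subunit Sem1 (-2.92 ± 0.14). Psmb9, a subunit of the immunoproteasome, missed the threshold (0.33 ± 0.18). All 8 CCT subunits, which fold actin and tubulin, were tested: 6 were higher, with Cct6a at 1.47 ± 0.15 and Cct3 at 1.40 ± 0.22, while Cct2 (0.49 ± 0.19) and Cct4 (0.23 ± 0.21) were not called. EdgeR called 4 of the 8 higher. The CCT median was 0.96, from 0.63 in LUL18 to 1.53 in the displaced LUL16. The median departure of CCT genes from genes of like length was 0.29.

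**Figure D4:**
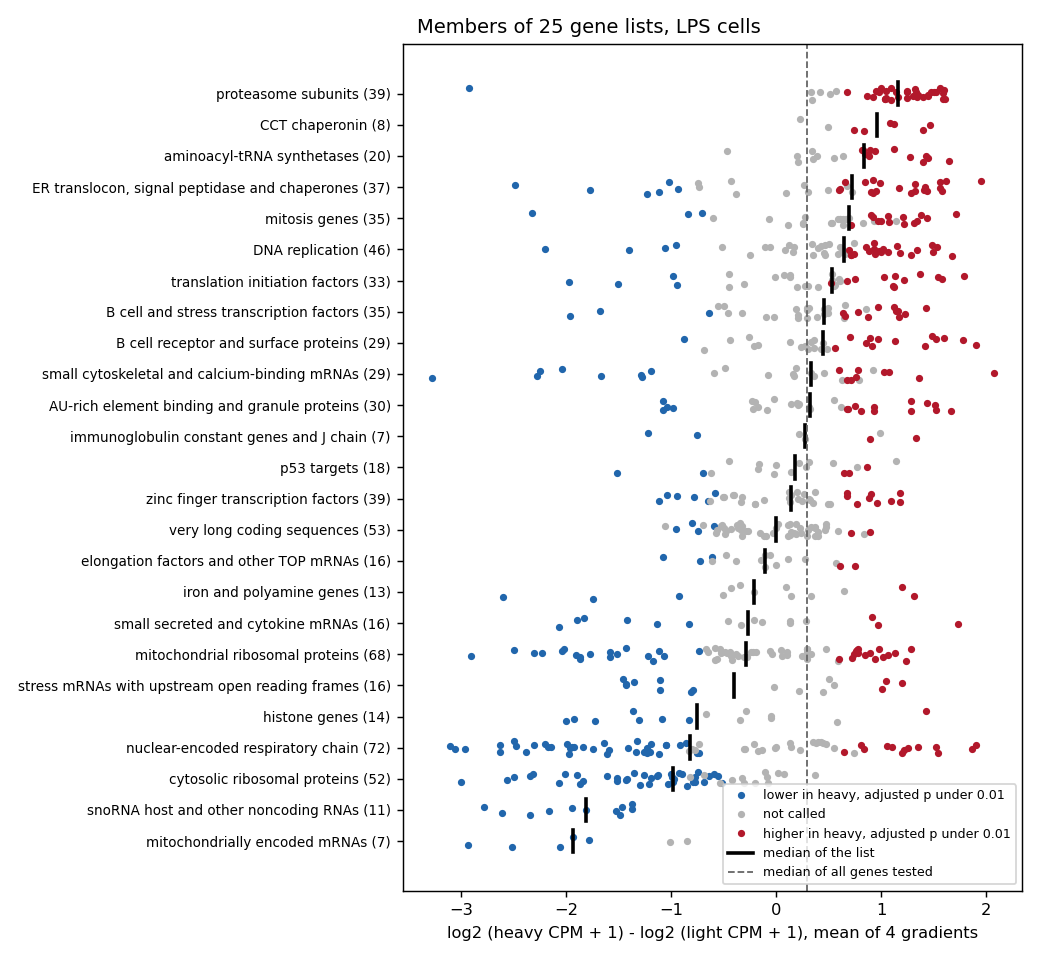
Log2 heavy to light ratio of each tested member (mean of 4 gradients) in 25 gene lists ordered by their medians (black bars), with the number tested in brackets. Blue and red points were lower and higher in heavy polysomes at an adjusted p under 0.01, grey points were not called, and the dashed line is the median of all genes tested. Proteasome genes sit at the heavy end with a median of 1.16 and mitochondrially encoded mRNAs at the light end with -1.93.

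Respiratory chain genes spread over almost the whole range. Of 72 tested nuclear-encoded subunits 37 were lower and 13 higher (median -0.82), against 18.2% and 27.3% of all genes. The coding lengths of the lower ones ran from 52 to 468 codons (median 104) and those of the higher ones from 212 to 664 (median 453). Uqcr11, of complex III, had 82.3, 82.9, 52.0 and 64.9 CPM in light and 9.94, 8.18, 3.55 and 8.81 CPM in heavy polysomes (-3.10 ± 0.20). Among the higher ones Atp5b, the beta subunit of ATP synthase with 529 codons, rose from 206, 192, 159 and 126 CPM to 764, 774, 534 and 450 CPM (1.87 ± 0.14), and Uqcrc1 of complex III stood at 1.90 ± 0.15. Against genes of like length the list's median departure was 0.14. Mitochondrial ribosomal proteins were divided in the same way, with 16 higher (23.5%) and 19 lower (27.9%) of 68. They ran from Mrpl33 (-2.91 ± 0.15) and Mrpl42 (-2.50 ± 0.15) to Mrpl3 (1.24 ± 0.17) and Mrpl39 (1.29 ± 0.16).

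mRNAs encoded in the mitochondrial genome, which mitochondrial and not cytosolic ribosomes translate, were the lightest list with fractions 11 to 13 as the heavy class. With fractions 11 to 16 their median was -1.71, and that of snoRNA host and other noncoding RNAs was -1.77. Of 7 tested, 5 were lower and 0 higher by limma, against 18.2% and 27.3% of all genes. At an unadjusted p under 0.05, 7 were lower and 0 higher, and their median log2 ratio was -1.93. The highest ratio among them was -0.85. mt-Nd4, a subunit of complex I, had 26067, 19061, 36279 and 43784 CPM in light and 3269, 2380, 5256 and 5684 CPM in heavy polysomes (-2.93 ± 0.11). mt-Cytb followed with -2.51 ± 0.12, whereas mt-Nd2 (-1.01 ± 0.30) and mt-Nd6 (-0.85 ± 0.32) missed the threshold. The 7 genes took 6.39% ± 2.24 of the light and 1.09% ± 0.41 of the heavy counts.

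Immunoglobulin and B cell surface mRNAs took a larger share of the heavy than of the light counts. B cell receptor and surface genes took 3.27% ± 0.35 (SD) of the light and 6.55% ± 0.53 of the heavy counts. Igkc, the kappa light chain constant gene, rose from 23097, 34596, 43365 and 35654 CPM to 54184, 69506, 109112 and 120873 CPM (1.33 ± 0.13, adjusted p = 8.6e-06). Heavy values were all above light values. Ighm, the heavy chain of IgM, was also higher (0.90), while Iglc2, a lambda light chain constant gene, was lower (-0.75 ± 0.13), as was Ighg3 of IgG3 (-1.22 ± 0.18), whose main counted site lay in an annotated intron near a transcript end. Lambda constant genes are near-identical copies, so the value of Iglc2 is uncertain. The immunoglobulin list took 4.44% ± 0.86 of the light and 10.2% ± 3.07 of the heavy counts, higher in 4 of 4 gradients (exact sign-flip p = 0.12, adjusted p = 0.165). Igkc made up most of the counts of this list in both classes. Of the 7 tested members of the list 2 were higher and 2 lower, against 27.3% and 18.2% of all genes. The list's median log2 ratio was 0.28, close to the 0.29 of all genes tested. Leaving immunoglobulin and mitochondrial genes out of the totals gave 3347 calls.

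Among 29 tested B cell receptor and surface genes 13 were higher and 1 was lower (median 0.45), against 27.3% and 18.2% of all genes. H2-K1 had 873, 1010, 586 and 696 CPM in light and 3206, 3761, 2289 and 2523 CPM in heavy polysomes (1.90 ± 0.12). Ms4a1, which encodes CD20, stood at 9.52, 11.1, 43.6 and 49.2 CPM in light and 37.9, 32.5, 173 and 172 CPM in heavy polysomes. Its level differed between LUL15 and LUL16 on one side and LUL17 and LUL18 on the other, but its ratio was alike (1.78 ± 0.17). The MHC class II chains H2-Ab1 (1.59) and H2-Aa (0.89) and the invariant chain Cd74 (1.42) were higher too. The BAFF receptor gene Tnfrsf13c was the only lower member (-0.88 ± 0.17). Cd22 (0.36) and Cd79a (0.36) were not called.

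Of 37 tested ER genes 21 were higher and 6 lower (median 0.72), against 27.3% and 18.2% of all genes. The lower ones had 66 to 192 codons and the higher ones 179 to 823. The chaperone calreticulin, Calr, rose from 598, 608, 387 and 340 CPM to 1671, 2614, 1207 and 818 CPM (1.62 ± 0.16), and Pdia6 stood at 1.95 ± 0.15. The lower ones were Sec61b, a 96-codon subunit of the translocation channel (-2.49 ± 0.17), Sec11c of the signal peptidase, Manf, Ostc, Dad1 and Serp1. Sec11c had 1006, 1011, 1642 and 1482 CPM in light and 323, 213, 458 and 576 CPM in heavy polysomes, a ratio of -1.77 and a departure of -1.44 from its length class. Hspa5, the chaperone BiP, was not called (0.72). By summed counts the direction was the other way. The 39 genes of the list took 1.75% ± 0.10 (SD) of the light and 1.61% ± 0.06 of the heavy counts, lower in each gradient.

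Stress mRNAs listed as having uORFs were light for their length. Of 16 tested 8 were lower and 3 higher, against 18.2% and 27.3% of all genes, with a median of -0.41 and a median departure of -0.77 from genes of like length. Atf4, the transcription factor of the integrated stress response, whose uORFs hold back its main frame in unstressed cells, had 2002, 1858, 2638 and 2432 CPM in light and 703, 651, 937 and 969 CPM in heavy polysomes. All heavy values were below all light values (-1.46 ± 0.13, adjusted p = 3.6e-06), with a departure of -1.92 from the length class. Ddit3 (-1.43 ± 0.18), Slc35a4 (-1.43), Chac1 (-1.36), Ppp1r15a (-1.11), Atf5 (-1.10), Ifrd1 (-0.81) and Cebpb (-0.79) were also lower. Azin1 (1.20 ± 0.16), Uchl1 (1.04 ± 0.19) and Trib3 (1.01) were higher, and Uchl1 had no uORF in the annotated transcript used. Over all genes the trend was slight: the median departure from the length class was 0.06 for 4046 genes without an annotated uORF and -0.16 for 383 genes with more than 4.

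Of 13 tested polyamine and iron genes 3 were lower and 2 higher, against 18.2% and 27.3% of all genes. Oaz1, the antizyme that restrains polyamine synthesis and needs a ribosomal frameshift for its full product, had 299, 225, 251 and 218 CPM in light and 50.7, 38.1, 35.9 and 36.4 CPM in heavy polysomes (-2.60 ± 0.15). The departure of Oaz1 from its length class was -2.78. Its relative Oaz2 had -1.75 ± 0.16 and Fth1, the ferritin heavy chain that iron regulatory proteins control, had -0.93. The antizyme inhibitor Azin1 and the iron regulatory protein gene Ireb2 (1.31 ± 0.17) were the 2 higher members. Odc1, the polyamine enzyme that antizyme targets, was not called (-0.50).

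Cell cycle mRNAs were more often called higher than lower. Of 46 tested DNA replication genes 21 were higher and 4 lower (median 0.64), and of 35 mitosis genes 14 were higher and 3 lower (median 0.69), against 27.3% and 18.2% of all genes. The median departures from genes of like length were 0.17 for replication and 0.40 for mitosis genes. Pcna, the sliding clamp, rose from 124, 106, 127 and 85.2 CPM to 385, 324, 387 and 313 CPM (1.67 ± 0.14). Cdk1, the mitotic kinase, rose from 269, 334, 187 and 271 CPM to 828, 1206, 611 and 876 CPM (1.71 ± 0.13). The helicase subunit Mcm6 reached 1.53 ± 0.18 and the spindle checkpoint gene Mad2l1 1.43 ± 0.19. The lower replication genes were Pole4 (-2.20 ± 0.16), Rpa3 (-1.40 ± 0.24), Pole3 (-1.06) and Pold4 (-0.96), small subunits of polymerases and of the single-strand binding complex. The lower mitosis genes were Cenpa, the 134-codon centromeric histone (-2.33 ± 0.14), Ube2c (-0.84 ± 0.17) and Knstrn (-0.71).

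Transcription factors differed one from another. Of 35 B cell and stress factors 11 (31.4%) were higher and 3 (8.57%) lower, with a median of 0.46. Of 39 zinc finger factors 9 (23.1%) were higher and 6 (15.4%) lower, with a median of 0.14. Over all genes 27.3% were higher and 18.2% lower. E2f1, which drives entry into S phase, had 69.8, 69.4, 78.1 and 79.0 CPM in light and 14.2, 13.0, 34.7 and 16.8 CPM in heavy polysomes (-1.96 ± 0.21), although its 430 codons put it in a length class with a median of 0.54. Jund (-1.67 ± 0.16) was lower and Jun (1.43 ± 0.22) higher, and the 2 differ by few codons (341 and 334). The main counted site of Jun lay 717 bases from an annotated end. The B cell coactivator Pou2af1 (1.23 ± 0.14) and Ikzf1 (1.18 ± 0.15) were higher, and Zfp36 (-1.04 ± 0.15), the decay factor of AU-rich mRNAs, was lower. By edgeR 6 zinc finger genes were higher and 12 lower, against 22.6% and 24.9% of all genes.

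Of 9 genes named for the study's subject, Trp53, Hif1a, H2-K1, Ccnd2 and Tial1 were higher in heavy polysomes of these undamaged cells. Pabpc1 was lower, Tia1 and Cdkn1a were not called, and Gadd45a was below the filter. Trp53, encoding p53, had 131, 223, 127 and 190 CPM in light and 322, 569, 245 and 375 CPM in heavy polysomes. Heavy exceeded light in every gradient, and the lowest heavy value was above the highest light value (1.14 ± 0.15, adjusted p = 6.1e-05). Hif1a, the hypoxia factor, rose from 165, 85.1, 118 and 102 CPM to 295, 225, 167 and 177 CPM (0.88 ± 0.17). The cyclin Ccnd2 stood at 1.61 ± 0.14 and Tial1 at 0.68 ± 0.15. Tial1 was not called by edgeR, by DESeq2 or without the replicate block, nor without LUL15, LUL17 or LUL18. Tia1, the granule protein that binds U-rich 3′ ends, was at 27.2, 14.3, 24.4 and 40.7 CPM in light and 26.8, 24, 52.1 and 29.8 CPM in heavy polysomes, and the groups overlapped (0.33 ± 0.24, adjusted p = 0.26). Cdkn1a, the p53-induced cell cycle inhibitor, also overlapped (0.22 ± 0.31). The LUL17 heavy values of both genes lean on its shallow fraction 12 library, where 1 count equals 31 CPM. There Tia1 was at 92.9 CPM, against 20.8 and 42.7 CPM in fractions 11 and 13. Cdkn1a was at 217 CPM there, against 41.6 and 18.4 CPM. The log2 ratio of Cdkn1a was 1.66 in LUL17 and 0.05, -0.69 and -0.14 in LUL15, LUL16 and LUL18. Gadd45a was below the filter, with 2.48 to 9.22 CPM in light and 1.00 to 4.34 CPM in heavy polysomes. Of 18 tested p53 targets 3 (16.7%) were higher and 2 (11.1%) lower, against 27.3% and 18.2% of all genes. The lower ones were the death genes Bax (-1.52 ± 0.21) and Pmaip1 (-0.70 ± 0.17), and Sesn1 was the highest called (0.86 ± 0.18). Of 30 AU-rich element binding and granule genes 12 (40%) were higher, led by Hnrnpd (1.67 ± 0.14) and G3bp2 (1.52 ± 0.25). The 4 lower ones (13.3%) were Rc3h2, Pabpc1, Zfp36 and Dcp2.

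RNAs without a long coding sequence were light. All 11 tested members of a list of snoRNA host and other noncoding RNAs were lower in heavy polysomes (median -1.81), against 18.2% of all genes. They ran from Snhg3 (-2.78 ± 0.19) to Neat1 (-1.37 ± 0.31), a nuclear RNA. Of the biotypes in the table, 54 lincRNAs had a median of -1.38 with 32 lower and 1 higher, and 20 antisense genes one of -2.17 with 15 lower and 2 higher. Whether the counting kept strand is not given in the sources used here, so antisense values are uncertain. Among 14 tested histone genes 7 were lower and 1, H2afy, higher (1.43 ± 0.15), against 18.2% and 27.3% of all genes. H2afy encodes macroH2A, which is longer than a canonical histone. H2afv, a variant of H2A.Z, was the lowest (-2.0 ± 0.15). Against genes of like length the median departure of the tested histone genes was 0.23. Most histone mRNAs lack a poly(A) tail, and 18 of 32 were below the filter.

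Small secreted proteins were split likewise, with 6 lower and 3 higher of 16, against 18.2% and 27.3% of all genes. The chemokine Ccl5 (-2.07 ± 0.20) and the cytokine Tnf (-1.90 ± 0.28) were lower, and the galectin Lgals9, with 353 codons, rose from 1089, 1644, 771 and 816 CPM to 3306, 4584, 2788 and 3243 CPM (1.73 ± 0.13). Tnf, with 235 codons, departed by -2.08 from its length class, while the median departure of the secreted list was 0.44. Small cytoskeletal and calcium-binding genes had 9 higher and 8 lower of 29, against 27.3% and 18.2% of all genes. EdgeR called 4 higher and 9 lower, against 22.6% and 24.9% of all genes. The median departure of this list from genes of like length was 0.40. Dynll1, S100a6, S100a10 and S100a11 were lower beside Tmsb4x. S100a8 (-2.27 ± 0.25) and S100a9 (-1.29) are markers of neutrophils, and their part in the light class from other cells was not tested.

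The same ratio was set beside that of cells given etoposide at 20 µM for 4 h (LPS+ET) and of cells that also had KU55933 at 10 µM for 1 h before (LPS+ET+KU), 4 gradients each. The ratio changed between LPS and LPS+ET for 4 of 7507 genes (0.0533%), or 32 with the pool tag as a block, and between LPS+ET and LPS+ET+KU for 1 (0.0133%), also 1 with the block. At an unadjusted p under 0.05 there were 774 and 455 genes. These 5 genes were picked for their values. Mll1, a histone methyltransferase gene with a very long coding sequence, had a log2 ratio of -0.49 ± 0.41 (SD, n = 4) with LPS alone, -2.29 ± 0.43 after etoposide and -1.63 ± 0.14 with the inhibitor added. The change with etoposide was -1.80 ± 0.27 (SE, adjusted p = 0.0092). The other 3 were the pseudogenes Gm3222 and Gm5633 and the predicted gene Gm12216, whose mean ratio was positive in LPS and negative in LPS+ET. The gene of the inhibitor comparison, Defb1, was nearly absent from LPS cells, at 1.62 CPM or less in each class, and passed the filter through the heavy class after etoposide and the light class with the inhibitor added. The median ratio of genes of over 3000 codons was -0.31 with LPS alone (-0.57 to 0.10 in the gradients), -1.23 after etoposide (-1.58 to -0.70) and -0.83 with the inhibitor added (-1.19 to -0.36), over 45 genes that passed the filter of all 12 gradients. The LPS and LPS+ET values of single gradients did not overlap, and this difference was not tested. For genes of 100 or fewer codons the 3 medians were -2.04, -1.78 and -1.93, and for proteasome genes 1.16, 0.98 and 0.70.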

How the data were processed

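PolyRibo-3′ RNA-seq tags mRNA 3′ ends in the RNA of each sucrose fraction. Per the labels, the authors aligned reads with TopHat2 2.0.12 and counted them per gene with HTSeq on GRCm38 (mm10), and their notes also name DESeq2 1.6.3. The deposited values used here are raw counts per gene and fraction library, not normalized. Each library was scaled to CPM, the 3 fractions of a class were averaged per gradient, and log2(CPM + 1) was differenced within the gradient, since both classes come from 1 gradient. Genes with a mean of 10 CPM or more were tested with limma 3.58.1 (intensity trend, two-sided, Benjamini-Hochberg adjusted p under 0.01), after the script was tested on simulated data. Changes of the ratio between treatments used limma on 12 gradient ratios. edgeR 4.0.16 and DESeq2 1.42.0 on summed counts were alternatives. Library totals ran from 32306 to 3403708 counts, so a gene at 10 CPM had few or no counts in the shallowest library. Per the study's methods, fractions entered the libraries at identical RNA concentrations, so totals do not measure the mRNA of a fraction. For part of the columns the labels give only the treatment group, and gradients were then read from the pool tag of the column name. Coding lengths came from GENCODE M21, 1 transcript a gene. Named genes were the 12 highest and 12 lowest called protein-coding genes of 20 or more mean CPM with 1 direction in 4 gradients, the 2 highest and 2 lowest of each of 25 lists, the 5 shortest and 5 longest coding genes of 100 or more mean CPM, and 9 genes of the study's subject. Other genes named were chosen after their values were seen. The gradients, lists and tests were chosen with earlier results of these data known.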

Additional observations from a re-analysis of the deposited data

Results flagged for a closer look

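Among 198 groups of 4 gradient values tested for a value far from the other 3, 14 were flagged, and chance flags about 1 in 20. LUL16 stood apart for 7 of them: the median of genes of 101 to 150 codons (-1.705), Mrpl39 (0.9495), Ighg3 (-0.628), Serp1 (-1.56), S100a10 (-2.238), S100a11 (-2.155) and S100a8 (-2.953) had the log2 ratio given in that gradient. LUL17, whose fraction 12 library was the shallowest, stood apart for mt-Nd2 (0.4894), mt-Nd5 (-0.889), E2f1 (-1.147), Neat1 (-2.193) and Oaz1 (-2.77). LUL18 stood apart for Atf4 (-1.327) and Pcna (1.864), although in both the 4 values spanned little. Without the shallow library the mean ratio was -1.5 for mt-Nd2, which was then called, -2.22 for mt-Nd5, -2.14 for E2f1, -1.26 for Neat1 and -2.45 for Oaz1. With LUL16 read 1 fraction lower it was 1.42 for Mrpl39, -1.34 for Ighg3, -0.56 for Serp1, -0.85 for S100a10, -0.82 for S100a11 and -1.97 for S100a8.

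The heavy to light ratio differed between treatments for 5 genes by limma. With etoposide the log2 ratio changed by -1.803 for Mll1, -2.863 for Gm12216, -2.125 for Gm3222 and -2.805 for Gm5633. When single gradients were left out the highest adjusted p of these genes lay between 0.034 and 0.047. With the ATM inhibitor added, that of Defb1 changed by -6.439. Its heavy class held 19.7 to 126 CPM in LPS+ET and 1.39 to 3.99 CPM in LPS+ET+KU, and its light class 0 to 3.11 CPM and 5.64 to 34.5 CPM. It passed the filter only through the classes where it was high, and with 1 gradient left out its adjusted p rose to as much as 0.015 and the call was lost.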

How the results depend on the processing

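The count of 3239 genes stayed within 1.5 times under every alternative to the heavy against light test except a heavy class of fractions 11 to 16 (5097). It was 2181 of 17302 genes with no filter, and it ran from 2324 to 3155 with 1 gradient left out. Without the replicate block 2424 genes were called. The heavy and light classes of a gradient pair by construction, since both were cut from the same gradient. With the pool tag as a replicate block, 32 genes changed their ratio with etoposide and 1 with the inhibitor. Whether equal tags of different treatments share mice is not given in the sources used here. The etoposide count was 0 with no filter (1512 genes at an unadjusted p under 0.05), 22 at an adjusted p under 0.05, and 0 to 8 with 1 gradient left out. That of the inhibitor was 2 by edgeR and 0 to 2 with 1 gradient left out. The correlation of ratio with coding length was 0.66 with fractions 11 to 16. That class also turned Ubr4 (1.52), Rnf213 (1.39), Dync1h1 (1.46), Atm (1.18) and Eef2 (0.11) from lower to higher. Of the values of named genes under the alternatives, 2627 kept direction and side of the threshold, 95 lost the call and 39 gained one. Calls lost without LUL15 included Ubr4, Rnf213, Tg, Tial1, Pmaip1 and Neat1, and without LUL17 Atm, Eef1b2, Eif1b, Tnfrsf13c and Ube2c. Relative to the median of all genes, 19 of 25 list medians kept their sign under all alternatives. Those of very long (-0.47 to 1.43), immunoglobulin (-0.08 to 0.80), zinc finger (-0.22 to 0.10), p53 target (-0.38 to 0.03), AU-rich element (-0.02 to 0.37) and cytoskeletal genes (-0.37 to 0.23) did not. The alternatives without the shallow library and with LUL16 read 1 fraction lower were chosen after seeing the data. The cause of these shifts was not tested. Depth limits genes near 10 CPM.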

Other observations

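Some mRNAs were much lighter than others of their length. They were chosen after their values were seen, as those with the lowest departure from the median of their length class, so no test is given. Beside mt-Nd4 and mt-Cytb the lowest was Gpx1, a selenoprotein that needs a UGA codon read as selenocysteine. It had 601, 417, 586 and 511 CPM in light and 81.3, 71.3, 98.2 and 66.1 CPM in heavy polysomes, a log2 ratio of -2.73 at 201 codons. Slc25a39, a mitochondrial carrier of 359 codons, had 1585, 1727, 740 and 1377 CPM in light and 373, 393, 164 and 286 CPM in heavy polysomes. The cyclin-like gene Ccni (-2.05) and Bfsp2 (-2.09) were as light at 377 and 416 codons. The light and heavy values of these 4 genes did not overlap, but the genes were picked by these same values, so this adds no support.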
